A study of Mus musculus with 10 samples.

Results

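H3K4me3 was described over the mouse genes whose name is Zfp followed by a number, on chromosomes 1 to 19 and without Zfp57. Their members were the 5 kb windows that the deposited table labels with such a gene. This rule used a label and a position and no measured value, although earlier results of these data were known when it was set. The members came to 2280 of the 544879 windows of the series and stood for 350 genes. A gene had a median of 4 windows and 13 genes had 1, while Zfp407 had 93. A window carries the name of 1 gene at most, so that the transcription start site (TSS) of a Zfp gene can lie in a window that bears another name or none. Of the 348 genes whose identifier was found in the GENCODE M21 annotation, 286 had a TSS window under their own name.

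The question of the study was how the loss of SETD1B, an enzyme that methylates lysine 4 of histone H3, changes the placement of H3K4me3 in the oocyte. Germinal vesicle (GV) oocytes, which have not yet resumed meiosis, came from C57BL6 females of 21 days (the C57BL/6OlaHsd background in the study's methods), about 200 oocytes to a library, and were profiled by ULI-nChIP-seq, which precipitates native chromatin of few cells. The Setd1b cKO libraries (replicates 1, 3 and 4) were of the genotype Setd1b floxed/floxed with Gdf9-Cre, and the WT libraries (replicates 1, 2 and 4) were Setd1b floxed/floxed without Cre. These genotypes are those of the labels, by which both groups carried the floxed alleles, whereas the study's methods also count females with 1 deleted and 1 intact allele and Gdf9-Cre as WT. Each genotype had 2 input libraries, sequenced without precipitation. Gdf9-Cre acts in the oocyte from the first stages of follicle growth, so that earlier stages had SETD1B in both genotypes, and each library was a pool of oocytes. The samples of a genotype are named biological replicates in the labels.

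Most Zfp genes encode C2H2 zinc finger proteins, in which a row of short loops, each held by a zinc ion, reads a DNA sequence. In many of them a KRAB domain binds the corepressor TRIM28, which brings in the H3K9 methyltransferase SETDB1 and heterochromatin proteins and so keeps transposable elements silent. KRAB zinc finger genes arose by tandem duplication and lie in clusters of close relatives. Others are single, long genes for regulators of development, and the Zfp36 genes encode CCCH zinc finger proteins, which bind AU-rich elements of mRNA. H3K4me3 marks active promoters in most cells, and in growing oocytes it also spreads over broad domains outside promoters.

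Promoter sequences are shown for the Zfp genes on whose TSS windows the results turn. RefSeq promoters of build GRCm38.p6, 250 bases before to 50 bases after the start, were found for 282 of the 350 genes. They held a median of 14 CpG, against 7 in those of 25465 other genes. The word of 12 letters with letter 7 free that the most Zfp promoters held on either strand was ACTACANTTCCC, whose reverse complement is GGGAANTGTAGT. It was present in 43 of the 282 Zfp promoters (15.2%) and in 229 of the other promoters (0.899%). The form of the word was chosen after the Zfp promoters had been read and its letters are the most frequent in them, so that the difference is a description. Of the common promoter motifs, GGGCGG was in 45% of Zfp and 36.2% of other promoters, CCAAT in 46.1% and 37.7%, TATAAA in 6.38% and 14.3%, and AAGATGG in 8.87% and 6.48%. None of these motifs is contained in ACTACANTTCCC. Printed here, 5′ to 3′ and up to the first annotated exon, are the bases before the start of 3 genes whose TSS windows lost H3K4me3 in cKO oocytes (Zfp790, Zfp108 and Zfp94), of 1 with a window among the highest of all Zfp genes (Zfp566), and of 2 whose TSS windows gained the mark (Zfp13 and Zfp36l1). Capitals mark the matches to ACTACANTTCCC or its reverse complement.
Zfp790, chr7:29815822-29816071, plus strand: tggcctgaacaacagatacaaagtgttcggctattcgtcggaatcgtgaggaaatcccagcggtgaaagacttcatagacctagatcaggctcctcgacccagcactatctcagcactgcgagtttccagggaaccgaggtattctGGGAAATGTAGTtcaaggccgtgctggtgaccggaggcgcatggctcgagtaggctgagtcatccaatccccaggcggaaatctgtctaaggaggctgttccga
Zfp108, chr7:24254544-24254793, plus strand: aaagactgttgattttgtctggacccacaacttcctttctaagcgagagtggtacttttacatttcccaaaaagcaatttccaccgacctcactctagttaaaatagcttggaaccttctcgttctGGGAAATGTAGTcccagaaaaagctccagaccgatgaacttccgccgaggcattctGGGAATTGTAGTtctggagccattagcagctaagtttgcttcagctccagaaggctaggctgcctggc
Zfp94, chr7:24316667-24316916, minus strand: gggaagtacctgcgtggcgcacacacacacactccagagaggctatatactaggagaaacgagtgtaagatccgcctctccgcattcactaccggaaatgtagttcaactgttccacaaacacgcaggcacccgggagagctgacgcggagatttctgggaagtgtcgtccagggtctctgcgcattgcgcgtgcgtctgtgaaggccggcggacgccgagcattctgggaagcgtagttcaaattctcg
Zfp566, chr7:30090528-30090760, minus strand: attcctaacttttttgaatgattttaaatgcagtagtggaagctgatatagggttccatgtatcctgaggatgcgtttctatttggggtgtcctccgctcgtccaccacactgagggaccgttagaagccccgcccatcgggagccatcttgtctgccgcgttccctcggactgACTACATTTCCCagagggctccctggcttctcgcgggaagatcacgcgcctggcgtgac
Zfp13, chr17:23599488-23599737, minus strand: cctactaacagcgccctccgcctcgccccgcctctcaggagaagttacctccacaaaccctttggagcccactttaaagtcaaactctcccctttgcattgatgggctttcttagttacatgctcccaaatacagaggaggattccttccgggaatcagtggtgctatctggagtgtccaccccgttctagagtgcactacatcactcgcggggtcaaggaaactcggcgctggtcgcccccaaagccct
Zfp36l1, chr12:80113014-80113263, minus strand: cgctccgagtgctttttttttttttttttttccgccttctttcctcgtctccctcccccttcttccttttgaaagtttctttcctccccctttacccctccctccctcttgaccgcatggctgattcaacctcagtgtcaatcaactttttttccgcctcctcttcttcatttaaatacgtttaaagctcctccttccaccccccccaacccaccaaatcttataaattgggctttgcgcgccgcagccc
Zfp108 held 2 matches in this stretch, Zfp790 and Zfp566 held 1 each, and the stretches of Zfp94, Zfp13 and Zfp36l1 held none.

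H3K4me3 is given as normalized RPKM, the authors' enrichment-normalized read density on a linear scale. A value of 0 on this scale does not mean that reads were absent, since a window with no read stood between -1.02 (cKO replicate 3) and 0.810 (WT replicate 1). The H3K4me3 libraries held 10856015 to 32775874 reads in windows, the median Zfp window held 12 to 56 reads, and 1 read was worth 0.0300 to 0.132 normalized RPKM, so that single windows of the shallower libraries carry a large counting error. The highest window of the targeted gene Setd1b stood between 7.37 and 9.69 in the WT libraries and between 2.17 and 3.25 in the cKO libraries (difference -5.59 ± 0.571 (SE), limma adjusted p = 0.0124). This is the mark at the gene and not a test of the deletion itself. At the highest windows of 10 oocyte marker genes, which stood between 4.24 and 6.56 over the 6 libraries, every cKO library lay below every WT library at 6 genes (10.6% of the highest windows of other genes) and no window passed the limma test (0 called by edgeR, unadjusted limma p under 0.05 at 1 gene higher and 6 lower). Of 8 granulosa cell markers, which stood between 1.31 and 6.31, every cKO library lay above every WT library at 5 (13.8% of the highest windows of other genes), and 1, Foxl2, passed the limma test for gain (adjusted p = 0.0415), as did 1.28% of the highest windows of other genes. By edgeR 0 of the 8 were called, and the unadjusted limma p was under 0.05 at 4 genes higher and 0 lower. The part of these shifts in the Zfp results was not tested.

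Zfp windows carried more H3K4me3 in Setd1b cKO than in WT oocytes. The mean over the 2280 windows was 2.2, 2.2 and 2.24 normalized RPKM in WT replicates 1, 2 and 4, and 2.44, 2.43 and 2.45 in cKO replicates 1, 3 and 4, so that the genotypes did not overlap. Every cKO library was above every WT library in 454 windows (19.9%) and below in 106 (4.65%), where the shares were 15.4% and 6.1% of the windows of other genes and 9.88% and 9.95% of all windows. In the limma fit over all windows, 33 Zfp windows of 15 genes gained H3K4me3 and 11 windows of 9 genes lost it at a Benjamini-Hochberg adjusted p under 0.05. These counts are 1.45% and 0.482% of the Zfp windows, against 0.563% gains and 0.454% losses among all windows (1.02% in either direction). Gene-labelled windows were higher in general: the 211948 windows of other genes had means of 2.05 to 2.14 in WT and 2.23 to 2.33 in cKO libraries, with 0.926% gains and 0.341% losses. The median difference was 0.211 in Zfp windows and 0.158 in windows of other genes, where over all windows, unlabelled ones included, it was -0.103. This last value depended on the scaling, with 0 under quantile normalization and 0.0860 on the log2 scale of edgeR. The called counts rested on single libraries. They were 74 gains and 25 losses without cKO replicate 1, 16 and 1 without cKO replicate 3, and 0 and 0 without cKO replicate 4 or any of WT replicates 1, 2 and 4, where limma gave an unadjusted p under 0.05 in 215 to 262 windows for gain and 74 to 92 for loss. In the fit on all libraries these counts were 310 and 96. With edgeR on the whole reads that the values allow to recover, 63 of 2266 windows gained and 2 lost, where 1.07% of all windows tested with edgeR gained and 1.22% lost. On the log2(value + 1) scale and under quantile normalization 0 Zfp windows were called by limma in either direction (unadjusted p under 0.05 in 272 and 341 for gain and 68 and 94 for loss). With the replicate block 121 gained and 42 lost.

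The gains lay mostly along long genes, with a median distance of 80.0 kb from the TSS window. In the 23 Zfp genes with 20 or more windows, 25 of 857 windows gained H3K4me3 (2.92%) and 1 lost it, and every cKO library was above every WT library in 251 (29.3%) and below in 21 (2.45%). Other genes of that length had gains in 0.867% and losses in 0.272% of 118379 windows, and every cKO library was above in 15.2% and below in 5.82% of them. Summed up by gene, the mean over its windows was above in every cKO library for 16 of the 23 Zfp genes and below for none, where 39.2% of 2429 other long genes were above and 5.56% below. In the 1423 windows of the shorter Zfp genes, 8 gained and 10 lost, where shares of other genes of that length were 1% and 0.427%. By edgeR 55 windows gained and 1 lost in the long genes, and 8 gained and 1 lost in the shorter ones, so that the larger number of losses in the shorter genes was not found with edgeR. A TSS of the own gene lay in 5 of the 33 gained windows, where 286 of all 2280 Zfp windows hold one. Of the 33, 12 held a coding exon and 16 were intronic. The shares of such windows among all Zfp windows were not taken, so that these 2 counts only describe the gains.

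**Figure D1:**
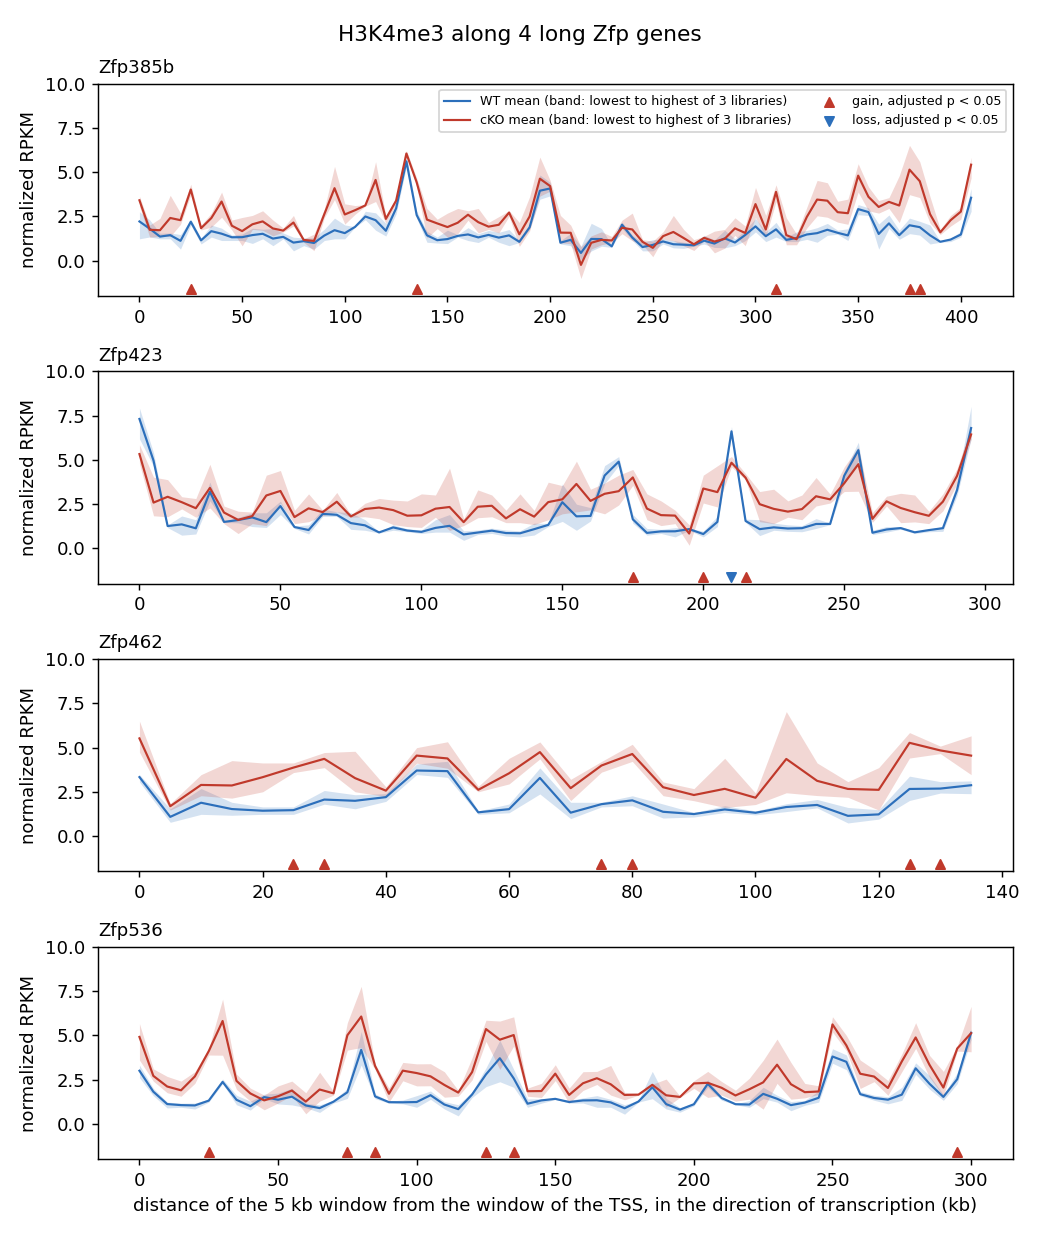
H3K4me3 (normalized RPKM) in each 5 kb window of Zfp385b, Zfp423, Zfp462 and Zfp536, by its distance from the TSS window in the direction of transcription (kb); lines are genotype means, bands run from the lowest to the highest of 3 libraries, and triangles mark windows with an adjusted p under 0.05. The cKO mean ran above the WT mean over most of each gene, in 74 of 82 windows of Zfp385b, 51 of 60 of Zfp423, 28 of 28 of Zfp462 and 59 of 61 of Zfp536.

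Zfp462, a C2H2 protein that maintains pluripotency in embryonic stem cells, had the largest difference of gene means among the 23 long genes (1.56). Its mean over 28 windows was 1.78, 2.06 and 2.07 in WT replicates 1, 2 and 4 and 3.36, 4.02 and 3.23 in cKO replicates 1, 3 and 4, and 6 windows passed the test. Every cKO library exceeded every WT library in 22 of its windows. Its TSS window, which is also its highest, stood at 3.06, 3.47 and 3.48 in WT and at 6.50, 5.32 and 4.75 in cKO and did not pass the test (difference 2.19 ± 0.459, limma Benjamini-Hochberg adjusted p = 0.0570).

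Zfp536, a repressor of neuronal differentiation, had means over 61 windows of 1.65, 1.70 and 1.78 in WT and 2.75, 2.85 and 2.82 in cKO replicates. Libraries of the genotypes were apart in 45 of the windows, all with cKO higher, and 6 passed the test. The most changed lay 75 kb into the gene at chr7:37695001-37700000, an intronic window, with 1.44, 1.91 and 2.01 in WT and 4.17, 5.72 and 5.13 in cKO (difference 3.22 ± 0.438, limma adjusted p = 0.0196). Its highest window, at the far end of the gene, did not pass the test, with a mean of 5.15 ± 0.331 (SD, n = 3) in WT and 5.13 ± 1.34 (SD, n = 3) in cKO (limma adjusted p = 0.990).

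In Zfp385b every cKO library was above every WT library in 44 of 82 windows and below in none, and 5 windows gained. Its mean was 1.65, 1.51 and 1.67 in WT and 2.26, 2.68 and 2.37 in cKO replicates. The largest difference stood 375 kb from the TSS window at chr2:77440001-77445000, where WT replicates had 2.07, 1.52 and 2.40 and cKO replicates 3.72, 6.51 and 5.18 (difference 3.14 ± 0.616, limma adjusted p = 0.0478). The cKO replicates spread widely there, but all of them were above WT.

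Zfp423, a regulator of cerebellar and adipocyte development, was the one gene with both kinds of change. Its mean over 60 windows was 1.91, 1.90 and 1.90 in WT and 2.09, 2.99 and 2.88 in cKO replicates, and 3 windows gained. The window at chr8:87745001-87750000, 210 kb into the gene, lost the mark, with 6.88, 6.48 and 6.47 in WT and 4.72, 5.19 and 4.60 in cKO (difference -1.77 ± 0.345, limma adjusted p = 0.0469). The next window, 215 kb into the gene, gained it, with 1.65, 1.52 and 1.47 in WT and 3.89, 3.87 and 4.22 in cKO (difference 2.45 ± 0.325, limma adjusted p = 0.0191). A narrow WT maximum was thus lower and its flank higher in cKO.

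Further gains with large differences lay within Zfp704 and Zfp608. Zfp704 had the largest gain of all Zfp windows, 45 kb into the gene in a window with a coding exon (chr3:9565001-9570000), at 1.70, 2.30 and 2.16 in WT and 6.39, 5.19 and 4.99 in cKO (difference 3.47 ± 0.433, limma adjusted p = 0.0159). Zfp608 followed at 90 kb, with 2.12, 1.72 and 2.64 in WT and 4.72, 5.59 and 6.48 in cKO (difference 3.44 ± 0.479, limma adjusted p = 0.0211). Their WT means were 2.05 and 2.16, where the median WT level of all Zfp windows was 1.51. The long genes were not alike, since Zfp804a, Zfp804b and Zfp943 had lower means in cKO, with differences of -0.28, -0.75 and -0.20 and overlapping libraries. They were also the poorest of the 23 in CpG, with medians of 19.5, 21.0 and 23.0 CpG to a window, against 49.0 for all Zfp windows.

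Zfp windows of low CpG content held none of the gains called by limma. The 2280 windows were divided into 3 groups of similar size by CpG content, the log2 of the CpG frequency over that of the genome. In the 773 windows of the lowest group the libraries overlapped, with means of 1.56 to 1.63 in WT and 1.55 to 1.67 in cKO, and 0 gained and 2 lost by limma (33 higher and 31 lower at an unadjusted p under 0.05; 6 gains and 1 loss by edgeR). In the 777 windows of the middle group the means were 1.99 to 2.09 in WT and 2.26 to 2.44 in cKO, with 12 gains (1.54%) and 1 loss (0.129%). In the 730 windows of the highest group they were 3.05 to 3.08 in WT and 3.35 to 3.46 in cKO, with 21 gains (2.88%) and 8 losses (1.1%). By edgeR 31 gained and 0 lost in the middle group and 26 gained and 1 lost in the highest, so that the order of the 2 groups by gains depended on the test. Windows of other genes gained in 0.19% and lost in 0.277% of cases in the CpG range of the lowest group, in 0.991% and 0.3% in that of the middle group, and in 2.09% and 0.5% in that of the highest. The median CpG content was 0.73 in gained, 1.13 in lost and 0.26 in all Zfp windows.

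**Figure D2:**
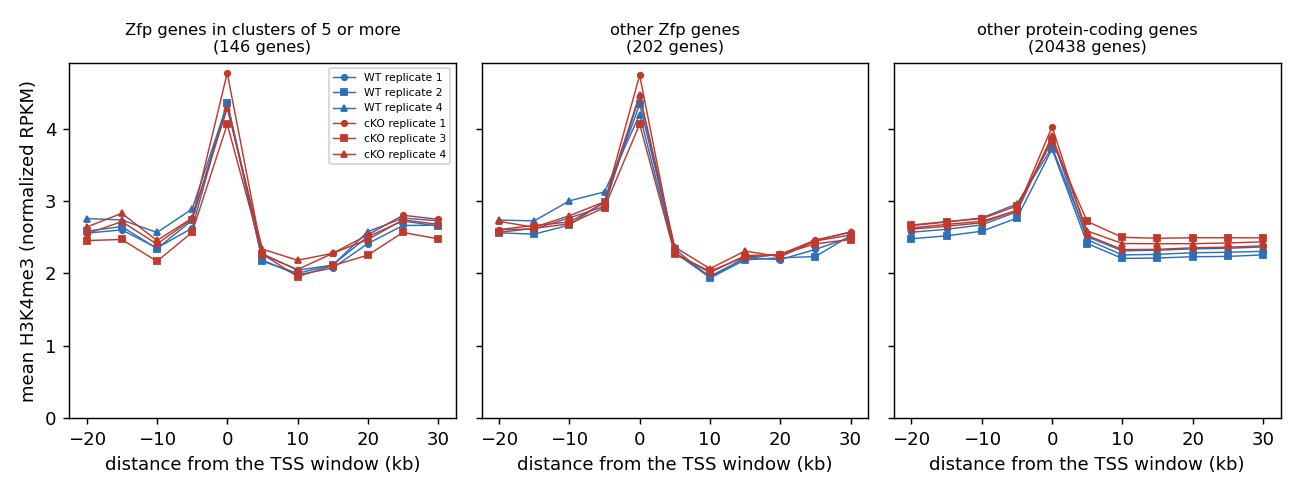
Mean H3K4me3 (normalized RPKM) against the distance from the TSS window in kb, positive within the gene, for 146 Zfp genes in clusters of 5 or more, 202 other Zfp genes and 20438 other protein-coding genes; each line is a library. All 6 libraries peaked at the TSS window, where Zfp genes reached 4.06 to 4.77, and from 5 to 30 kb inwards the cKO lines lay above the WT lines in other genes, whereas they overlapped at each of these distances in clustered Zfp genes and at 5, 20, 25 and 30 kb in the other Zfp genes.

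At the TSS the genotypes were close. The mean of the TSS windows was 4.36, 4.36 and 4.34 in WT and 4.77, 4.06 and 4.28 in cKO replicates for clustered Zfp genes, and 4.45, 4.34 and 4.19 in WT and 4.74, 4.06 and 4.47 in cKO replicates for the other Zfp genes. The cKO replicates lay on both sides of WT in each case. In other protein-coding genes the TSS window was lower, with 3.72 to 3.88 in WT and 3.83 to 4.03 in cKO. The mark fell to 2.29 (cKO) and 2.21 (WT) in clustered Zfp genes 5 kb into the gene and to 2.61 and 2.46 in other genes. Of the 286 Zfp windows with an own TSS, 5 gained and 4 lost H3K4me3, where 1.23% of the TSS windows of other protein-coding genes gained and 0.747% lost. Every cKO library was above in 41 (14.3%) and below in 27 (9.44%), near the 15.9% and 8.77% of those other genes. By edgeR 1 of these 286 windows gained and 0 lost (unadjusted limma p under 0.05 in 37 for gain and 29 for loss). In the 1970 Zfp windows without any protein-coding TSS, 28 gained (1.42%) and 6 lost (0.305%), where 0.896% and 0.304% of such windows of other genes did, and by edgeR 62 gained and 2 lost.

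For each gene the highest window was taken, by the mean over both genotypes. It held the own TSS in 220 of the 350 genes. Its median was 4.56 normalized RPKM, and 37 genes were above 6.38, which is the 99th percentile of all windows. Between the genotypes the median difference was 0.0428, beside 0.0379 for the highest windows of 22874 other genes. Zfp highest windows gained in 5 and lost in 6 cases by limma, 1.43% and 1.71%, where other genes had 1.28% and 1.17%. Every cKO library was above in 49 genes (14%, others 13.8%) and below in 37 (10.6%, others 10.6%), shares that are near the background. Leaving out cKO replicate 1 gave 9 gains and 13 losses, leaving out cKO replicate 3 gave 2 and 1, and leaving out cKO replicate 4 or WT replicate 1, 2 or 4 gave 0 of each (unadjusted limma p under 0.05 in 26 to 39 for gain and 33 to 36 for loss). By edgeR 1 gained and 0 lost (7 and 5 at an unadjusted p under 0.05).

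**Figure D3:**
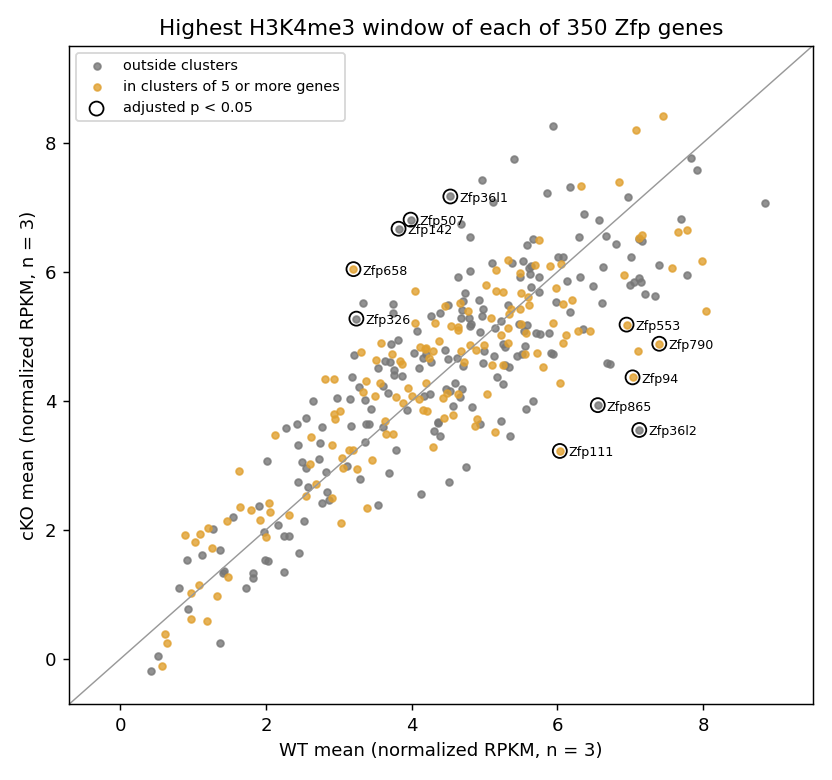
WT mean against cKO mean (normalized RPKM, n = 3 each) at the highest H3K4me3 window of each of 350 Zfp genes, coloured by membership in clusters of 5 or more genes; circled windows have an adjusted p under 0.05 and the line marks equal means. Points scatter on both sides of the line, 182 with a higher cKO mean, with 5 circled gains above it and 6 circled losses below.

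The 8 highest were Zfp957, Zfp566, Zfp277, Zfp867, Zfp467, Zfp628, Zfp36 and Zfp27, with means over 6 libraries of 7.96, 7.94, 7.80, 7.74, 7.64, 7.25, 7.22 and 7.14. Neighbours in this order were 0.0200 to 0.386 apart, less than the SDs between replicates of these windows (0.501 to 2.09). Zfp957 stood at 9.44, 8.62 and 8.48 in WT and 7.99, 7.30 and 5.91 in cKO replicates, all cKO values lower, without passing the test (limma adjusted p = 0.143). Zfp566 stood at 8.08, 6.58 and 7.70 in WT and 9.94, 7.30 and 8.03 in cKO, with overlap (limma adjusted p = 0.491). The 4 lowest, Zfp781, Zfp640, Zfp97 and Zfp955a, had means of 0.126, 0.235, 0.285 and 0.444 and an input signal of 0.139, 0.572, 0.40 and 1.09, against a median of 2.07 over all windows. The input of the first 3 was under 0.5 times this median, so that a low level of the mark and low mappability cannot be told apart there.

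Of the 11 losses 10 lay at most 3 windows from the TSS window, as did 7 of the 33 gains and 48.9% of all Zfp windows. All 10 were in genes with fewer than 20 windows, where 72.5% of the windows lie so near. Of the 8 gains in genes of that length 6 lay so near as well. Zfp36l2, which encodes an mRNA-destabilizing CCCH protein needed for oocyte maturation and female fertility, had the largest loss. In the window 5 kb from its TSS window (chr17:84180001-84185000) it stood at 7.19, 7.55 and 6.62 in WT and 3.84, 3.08 and 3.74 in cKO replicates (difference -3.57 ± 0.388, limma adjusted p = 0.0131). The lowest WT and highest cKO values were far apart. Its TSS window, the neighbour, had 6.62, 4.34 and 5.37 in WT and 3.67, 3.87 and 4.03 in cKO, lower in every cKO replicate but not past the threshold (limma adjusted p = 0.182).

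Its relative Zfp36l1 changed the other way. The TSS window (chr12:80110001-80115000), which holds the promoter printed above, stood at 5.31, 4.54 and 3.75 in WT and 6.61, 7.83 and 7.06 in cKO (difference 2.64 ± 0.479, limma adjusted p = 0.0393). For Zfp36, the third of these genes, the libraries overlapped: 6.77, 10.2 and 6.38 in WT and 6.33, 6.38 and 7.26 in cKO (limma adjusted p = 0.495). So by limma 1 of the 3 CCCH genes gained the mark, 1 lost it and 1 did not pass the test, where 1.28% of the highest windows of other genes gained and 1.17% lost. By edgeR 0 of the 3 were called.

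Several losses fell on TSS windows of chromosome 7. Zfp790, a C2H2 gene whose promoter is printed above, stood at 7.25, 7.84 and 7.10 in WT and 5.39, 4.13 and 5.13 in cKO (difference -2.51 ± 0.421, limma adjusted p = 0.0325). Zfp111 and Zfp94 lie in 1 cluster of 14 genes. Zfp111 had 6.36, 6.29 and 5.46 in WT and 4.28, 2.29 and 3.11 in cKO (difference -2.81 ± 0.514, limma adjusted p = 0.0399), and Zfp94 had 6.72, 7.75 and 6.62 in WT and 5.17, 4.53 and 3.40 in cKO (difference -2.67 ± 0.505, limma adjusted p = 0.0438). In all 3 genes every cKO replicate was below every WT replicate. The TSS window of Zfp108, between them, bears no gene name in the table and is therefore no member. It was looked up after the values of its neighbours had been seen, and stood at 8.45, 8.23 and 7.55 in WT and 5.50, 4.13 and 5.42 in cKO (difference -3.06 ± 0.453, limma adjusted p = 0.0241).

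Zfp553 lost the mark in 2 adjoining windows, the first of which also holds the TSS of Sept1, so that the start of either gene may carry it. This TSS window had 7.14, 6.87 and 6.83 in WT and 5.50, 5.06 and 4.99 in cKO (difference -1.77 ± 0.337, limma adjusted p = 0.0444), and the next one had 6.77, 5.70 and 5.96 in WT and 2.95, 1.36 and 4.31 in cKO (difference -3.27 ± 0.653, limma adjusted p = 0.0497). The cKO replicates of the second spread widely but were all below WT. Zfp217, a transcriptional repressor, lost it in 2 adjoining windows 5 and 10 kb from its TSS window. The nearer stood at 8.19, 7.94 and 7.88 in WT and 6.11, 6.11 and 4.8 in cKO (difference -2.33 ± 0.422, limma adjusted p = 0.0391). At the TSS window itself all cKO replicates were lower too, 5.50, 4.79 and 3.78 against 5.78, 6.09 and 5.84, without passing (limma adjusted p = 0.232). Zfp865 lost it 10 kb from its TSS window, at the TSS of the gene 4632433K11Rik, with 7.51, 5.80 and 6.35 in WT and 3.56, 3.74 and 4.51 in cKO (difference -2.62 ± 0.482, limma adjusted p = 0.0404).

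The 5 gains at TSS windows were in Zfp142, Zfp658, Zfp36l1, Zfp13 and Zfp326. Zfp142 had 4.37, 3.08 and 4.02 in WT and 5.72, 7.17 and 7.11 in cKO (difference 2.85 ± 0.496, limma adjusted p = 0.0356), in a window that also holds the TSS of Bcs1l. Zfp658 had 3.48, 2.98 and 3.15 in WT and 5.61, 5.98 and 6.53 in cKO (difference 2.84 ± 0.369, limma adjusted p = 0.0177). Zfp13, shown in the promoter sequences, had 3.37, 3.47 and 3.63 in WT and 5.39, 6.64 and 5.57 in cKO (difference 2.38 ± 0.403, limma adjusted p = 0.0332). The WT level of these windows, 3.20 to 4.53 on average, was below the 4.34 mean of Zfp TSS windows in all but Zfp36l1, and the windows with a TSS that lost the mark had WT means of 6.03 to 7.40. The WT level is part of the difference by which windows were called, which favours low WT values among gains and high ones among losses. Zfp326 was the least changed of the 5, with a difference of 2.03 ± 0.399 (limma adjusted p = 0.0480). Zfp13 and Zfp326, like Zfp108, were chosen after their values were seen.

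Of the 282 RefSeq promoters of Zfp genes, the motif ACTACANTTCCC was in 35 of 131 of clustered genes (26.7%) and in 8 of 151 others (5.30%). Levels were compared in the 252 genes whose RefSeq start lies in the TSS window. This window had a median over 6 libraries of 4.84 in the 36 genes with the motif and 4.37 in the 216 without it. The cKO mean was higher in 27 of the 36 and in 109 of the 216, and every cKO library was above every WT library in 8 and 25 and below in 3 and 21. For limma there were 2 losses in the first and 5 gains and 2 losses in the second. Among TSS windows of other protein-coding genes the cKO mean was higher in 10554 of 18883. Of these windows 15.9% were above and 8.77% below, and 1.23% gained and 0.747% lost. The motif is a match of letters, and no binding was measured.

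Zfp genes were next taken by cluster, a run of 5 or more of them with gaps of at most 500 kb. There were 15 clusters with 148 genes and 601 windows, 79 further genes in 30 groups of 2 to 4, and 123 single genes. Windows in clusters held 3 gains (0.499%) and 5 losses (0.832%), where windows of other genes had 0.926% and 0.341%. By edgeR the clusters held 6 gains and 0 losses (unadjusted limma p under 0.05 in 49 for gain and 24 for loss), so that the balance turned. The genotypes overlapped in the means over the clustered windows, 2.34, 2.38 and 2.40 in WT replicates 1, 2 and 4 and 2.54, 2.36 and 2.50 in cKO replicates 1, 3 and 4. The 1335 windows of single genes held 29 gains (2.17%) and 4 losses (0.3%), or 55 and 2 by edgeR, and their means did not overlap, with 2.13, 2.11 and 2.17 in WT and 2.41, 2.54 and 2.46 in cKO. Of the 15 clusters the mean over the windows was above WT in every cKO library in 6, below in 1, and overlapped in 8. Of 8142 runs of 26 consecutive windows of other genes, 26 being the median number of windows in a cluster, 35.2% were above and 6.72% below, so that the count of clusters was near the background.

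**Figure D4:**
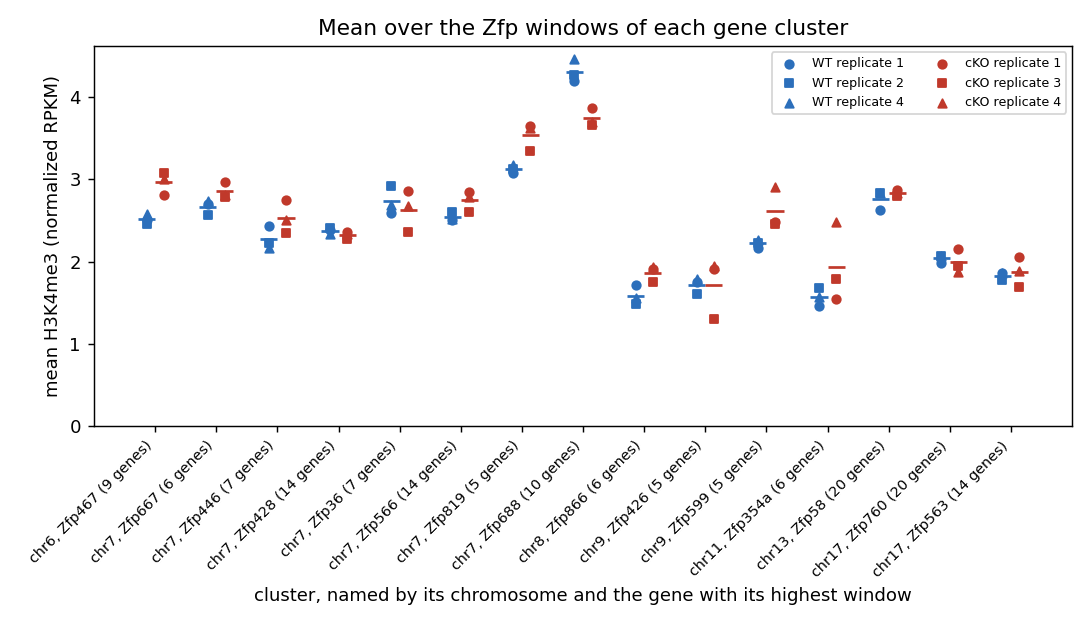
Mean H3K4me3 (normalized RPKM) over the Zfp windows of each of 15 gene clusters, named by chromosome and the gene with the highest window; points are libraries and bars genotype means (n = 3). The cluster of Zfp688 on chromosome 7 is the highest and the one whose cKO libraries (3.66 to 3.87) all lie below the WT libraries (4.20 to 4.46).

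The cluster whose mean was lower in every cKO library lies on chromosome 7 from 127230001 to 127890000 and holds 10 genes in 23 windows. Its means were 4.20, 4.27 and 4.46 in WT and 3.87, 3.66 and 3.70 in cKO replicates, a difference of -0.57, with a higher cKO mean in 6 of its windows. It was the cluster with the highest level and with the highest CpG content (median 1.21 on the log2 scale). Its losses that passed the test were both in Zfp553. Zfp689 had the largest difference at a highest window, with 6.30, 8.53 and 6.47 in WT and 4.83, 5.59 and 3.88 in cKO, all cKO replicates lower, without passing the test (difference -2.33 ± 0.629, limma adjusted p = 0.110). Zfp688, the highest gene, had 6.93, 7.26 and 7.16 in WT and 6.94, 6.38 and 6.24 in cKO, with overlap (limma adjusted p = 0.475).

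The cluster with the largest positive difference was on chromosome 6 from 47820001 to 48625000, where 9 genes in 44 windows had 2.51, 2.46 and 2.58 in WT and 2.81, 3.08 and 3.00 in cKO replicates (difference 0.45). Its highest gene, Zfp467, stood at 6.93, 6.68 and 7.64 in WT and 7.83, 7.96 and 8.80 in cKO, all cKO replicates higher, without passing the test (limma adjusted p = 0.233). Zfp786, the gene with the largest difference at its highest window, went the other way with overlap, 4.79, 7.07 and 6.38 in WT and 5.28, 4.13 and 5.28 in cKO (limma adjusted p = 0.382). A higher mean of the cluster thus went with differences of either sign at single genes.

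On chromosome 7 from 43185001 to 43620000, 5 genes in 16 windows had means of 3.08, 3.12 and 3.18 in WT and 3.64, 3.34 and 3.62 in cKO. Zfp658 gained the mark there, as given above, and Zfp819, the highest, overlapped at 6.62, 8.04 and 6.83 in WT and 7.0, 6.64 and 6.05 in cKO. On the same chromosome from 29765001 to 30170000, 14 genes in 56 windows had 2.51, 2.60 and 2.52 in WT and 2.84, 2.61 and 2.79 in cKO, so that the genotypes were barely apart. This cluster held the loss at the TSS of Zfp790 and a gain within Zfp82 (difference 2.22, limma adjusted p = 0.0391, chosen after its values were seen), with Zfp566 as its highest gene.

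The other clusters with every cKO library above were on chromosome 9 around Zfp599 (5 genes, mean 2.22 in WT and 2.61 in cKO), on chromosome 8 around Zfp866 (6 genes, 1.59 and 1.86) and on chromosome 7 around Zfp667 (6 genes, 2.66 and 2.85). At their highest windows Zfp810 had 3.74, 3.27 and 3.51 in WT and 4.83, 4.00 and 5.09 in cKO (limma adjusted p = 0.196), and Zfp787 had 3.16, 3.37 and 3.39 in WT and 4.22, 4.53 and 5.52 in cKO (limma adjusted p = 0.119). In both genes every cKO replicate was higher, and neither passed the test. Zfp599, Zfp866 and Zfp667 overlapped between genotypes.

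In both clusters of 20 genes and in that of 14 genes on chromosome 17 the genotypes overlapped. That of 20 genes on chromosome 13 from 66670001 to 67830000 had means of 2.62, 2.83 and 2.83 in WT and 2.87, 2.80 and 2.83 in cKO replicates over 91 windows. That of 20 genes on chromosome 17 from 21005001 to 23600000 had 1.99, 2.07 and 2.06 in WT and 2.15, 1.95 and 1.88 in cKO over 114 windows, a difference that changed sign under quantile normalization and without cKO replicate 4. In the first, Zfp708, which is linked to the methylation of a transposable element in the oocyte, had 6.36, 6.48 and 6.50 in WT and 5.55, 5.98 and 3.74 in cKO, lower in every cKO replicate without passing the test (limma adjusted p = 0.265), while Zfp58, the highest, overlapped. In the second Zfp760 was the highest gene and Zfp944 the one with the largest difference, and both overlapped. The 14 genes on chromosome 17 from 32770001 to 33635000 had means of 1.83 in WT and 1.88 in cKO, and 13.5% of their windows had a low input signal. Their highest gene, Zfp563, had 7.77, 8.62 and 7.55 in WT and 6.33, 5.85 and 6.34 in cKO, far apart but just short of the threshold (difference -1.81 ± 0.390, limma adjusted p = 0.0614).

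The other 5 clusters overlapped as well. The 14 genes around Zfp428 on chromosome 7, among them Zfp111, Zfp108 and Zfp94, had means of 2.38 in WT and 2.32 in cKO, the 7 genes around Zfp36 had 2.73 and 2.63, the 7 around Zfp446 had 2.27 and 2.53, the 5 around Zfp426 on chromosome 9 had 1.71 and 1.72, and the 6 around Zfp354a on chromosome 11 had 1.57 and 1.94. In the cluster of Zfp354a cKO replicate 4 stood apart, with 1.54, 1.79 and 2.48 in cKO replicates 1, 3 and 4 and 1.46, 1.68 and 1.57 in WT. Among the genes with the largest difference of these clusters at their highest windows, Zfp128 had 2.07, 1.62 and 1.23 in WT and 3.00, 2.55 and 3.21 in cKO (limma adjusted p = 0.132), and Zfp59 had 5.47, 6.29 and 5.64 in WT and 5.61, 3.08 and 4.89 in cKO (limma adjusted p = 0.352). Zfp128 was higher in every cKO replicate and Zfp59 overlapped, as did Zfp879.

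**Figure D5:**
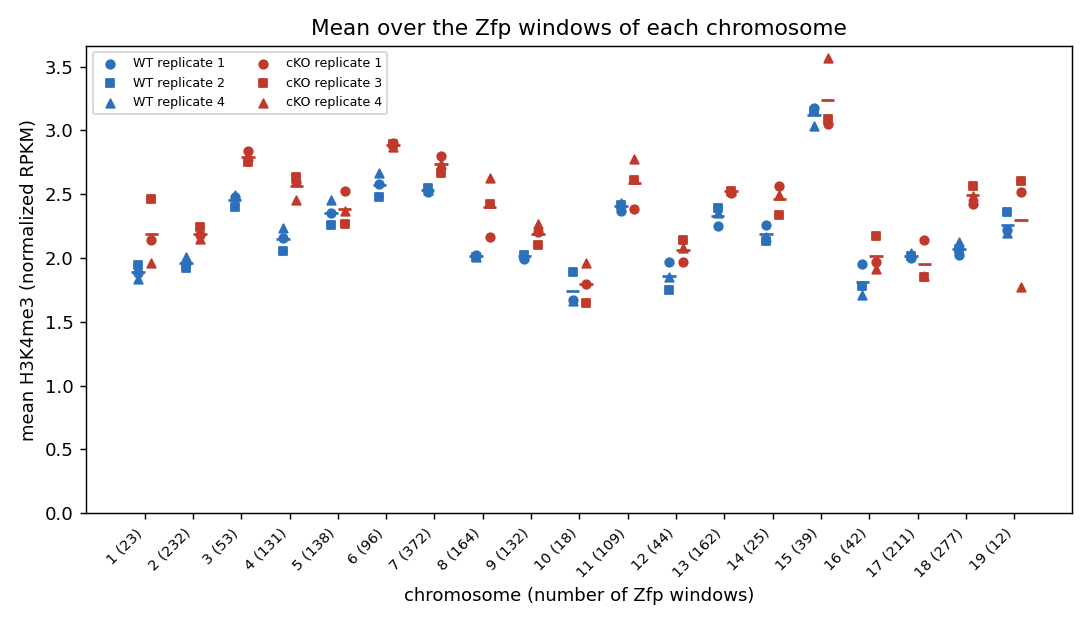
Mean H3K4me3 (normalized RPKM) over the Zfp windows of each chromosome, with the number of windows in brackets; points are libraries and bars genotype means (n = 3). Chromosome 15 has the highest level, and chromosome 17 is the one with a lower cKO mean (1.95 against 2.02).

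By chromosome, the mean over the Zfp windows was above WT in every cKO library on 12 of 19 chromosomes and overlapped on 7. For windows of other genes it was above on 17 of the 19 (89.5%) and below on 0, and for all other windows, unlabelled ones included, it overlapped on every one of the 19. The largest differences were on chromosome 18 (0.42, 277 windows), chromosome 4 (0.41, 131 windows) and chromosome 8 (0.39, 164 windows). On chromosome 18, where Zfp407, Zfp521 and other long genes make up the windows, the means were 2.02, 2.07 and 2.13 in WT and 2.43, 2.56 and 2.49 in cKO replicates. The other windows of that chromosome differed by -0.00662 on average. Over the 19 chromosomes the difference of the other windows, unlabelled ones included, ran from -0.172 to 0.115, whereas that of Zfp windows ran from -0.0637 to 0.419. Chromosome 17 was the one with a lower Zfp mean in cKO, with 2.00, 2.01 and 2.04 in WT and 2.14, 1.85 and 1.86 in cKO, a difference that turned to 0.0148 under quantile normalization. Its Zfp windows were poor in CpG (median content -0.35 on the log2 scale). Those of chromosome 19 were poorer still (-0.39), with a difference of 0.0371 and overlapping libraries. Chromosome 7 had the most genes (85), with 10 of the 33 gains and 7 of the 11 losses in 372 windows, or 2.69% and 1.88% of them. The shares were 0.926% and 0.341% of the windows of other genes and 0.563% and 0.454% of all windows of the series. Most of these gains were windows of the single gene Zfp536, and the losses include the adjoining windows of Zfp553.

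Genes were also taken by role, at the highest window. Of 7 regulators of pluripotency or of general transcription, 0 passed the limma test (unadjusted p under 0.05 for 2 higher and 1 lower, 0 called by edgeR). At the highest windows of other genes 1.28% gained and 1.17% lost, so that 0 of 7 is near that share. Zfp462 was higher in every cKO replicate, as given above. Zfp42, a marker of naive pluripotency also known as Rex1, had 5.41, 3.95 and 4.71 in WT and 6.33, 4.66 and 5.23 in cKO, with overlap (limma adjusted p = 0.491). Zfp281 and Zfp148, which bind GC-rich promoters, had means of 2.43 and 3.61 in WT and 3.65 and 4.23 in cKO, with overlap, and Zfp296 had 6.99 and 5.80, also with overlap. Zfp217 overlapped at its highest window (limma adjusted p = 0.332) and lost the mark in the 2 windows described above. The highest window under the name of Zfp143, a general promoter-binding factor, had a mean of 1.53. The TSS window of this gene bears the name AA474408 in the table and had 4.94, 5.12 and 4.50 in WT and 6.16, 5.72 and 4.99 in cKO, with overlap (limma adjusted p = 0.412).

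Of 5 genes that silence retroviruses or single genes, 0 passed the limma test (unadjusted p under 0.05 for 0 higher and 1 lower, 0 called by edgeR). This is near the share among highest windows of other genes, 1.28% gains and 1.17% losses. Zfp809, which recognizes the primer binding site of murine leukaemia viruses, had 3.01, 3.08 and 2.76 in WT and 4.06, 4.00 and 3.11 in cKO, all cKO replicates higher (limma adjusted p = 0.374). Zfp445, which protects imprints, was low at 1.28, 1.13 and 1.41 in WT and 1.45, 2.81 and 1.76 in cKO under its own name, higher in every cKO replicate (limma adjusted p = 0.454). Zfp932 and Zfp568 overlapped, with means of 4.11 and 4.71 in WT and 4.52 and 4.61 in cKO.

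Of 5 developmental regulators, 0 passed at the highest window (unadjusted limma p under 0.05 for 0 higher and 1 lower, 0 called by edgeR), although Zfp423 and Zfp536 had called windows along their length. Here too 0 is near the share of other genes, whose highest windows gained in 1.28% and lost in 1.17% of cases. Zfp521, a regulator of neural and blood progenitors, had its highest window lower in every cKO replicate, 7.72, 7.84 and 6.62 in WT and 6.39, 5.98 and 5.95 in cKO (difference -1.29 ± 0.408, limma adjusted p = 0.165). Over its 58 windows the means were the other way round, 2.93, 3.08 and 3.14 in WT and 3.65, 3.74 and 3.68 in cKO. Zfp503 and Zfp703, a related pair of repressors, overlapped.

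The genes of the TRIM28 corepressor, with which KRAB zinc finger proteins act, showed no called window among 12 (unadjusted limma p under 0.05 for 2 higher and 1 lower, 0 called by edgeR). With the replicate block 1 of them gained. Highest windows of other genes gained in 1.28% and lost in 1.17% of cases, so that 0 of 12 is near that share. Trim28 itself had 5.05, 5.31 and 5.73 in WT and 6.83, 5.72 and 7.11 in cKO, with a slight overlap (difference 1.19 ± 0.431, limma adjusted p = 0.224). Setdb1 had 3.79, 4.05 and 2.76 in WT and 3.23, 2.15 and 2.19 in cKO, also with overlap (limma adjusted p = 0.339). Every cKO replicate was above WT for Smarcad1 (limma adjusted p = 0.200) and below for Hdac1 (limma adjusted p = 0.140).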

How the data were processed

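H3K4me3 ULI-nChIP-seq and input libraries of d21 GV oocytes were analysed as deposited. The authors trimmed reads with Trim Galore 0.4.2, mapped them to GRCm38 with Bowtie2 2.2.9 (versions per the submitters' processing notes), removed mappings of low quality and counted them over 5 kb windows in SeqMonk. For H3K4me3 the authors deposited a score, their enrichment-normalized RPKM on a linear scale, and the deposited input values are a signal, reads per window scaled by library size. This normalization equalizes libraries at chosen percentiles, so that it gives the distribution of the mark and not its total amount.

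Groups and replicate numbers came from the sample labels. The test over all 544879 windows used limma 3.58.1 (R 4.3.3; moderated test without trend, two-sided, Benjamini-Hochberg adjustment over all windows, adjusted p under 0.05). The p-values measure the spread between 3 pooled libraries a genotype. Whole reads could be recovered for 100% of the values of each library (within 0.05 of a read) and were tested with edgeR 4.0.16 (quasi-likelihood, windows with at least 10 reads over 6 libraries, 2266 Zfp windows), an alternative added after seeing the data. It called 63 Zfp gains and 2 losses. The limma test was checked on simulated windows with known changes, and the edgeR test was not checked in this way.

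TSS came from GENCODE M21, CpG counts from GRCm38.p6 and promoters from RefSeq. The named genes were the 6 with the largest called difference each way, the 8 highest and 4 lowest genes, for each cluster the highest and the most changed gene, and lists by role. The members and lists were chosen with earlier results of these data known. Alternatives were log2(value + 1), an intensity trend, quantile normalization, a replicate block, each library left out, filters on mean (at least 1) and input (at least 0.5 times the median), and cluster gaps. Further tools were Python 3.11.15 with pandas 2.3.3, numpy 2.4.6 and matplotlib 3.10.9, and the R package data.table (version 1.17.8). Reads of close Zfp relatives can be lost or shared in mapping. KRAB domains were not assigned here.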

Additional observations from a re-analysis of the deposited data

How the results depend on the processing

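Over all Zfp windows, called gains outnumbered called losses under every alternative that called any. The balance turned at the highest windows, from 5 gains and 6 losses to 24 and 18 with the replicate block. There it also turned without cKO replicate 3 (2 and 1) and with edgeR. In the clusters and in the shorter genes it turned with edgeR, as given above. The mean difference over the Zfp windows, 0.225, was 0.245 under quantile normalization, 0.0983 on the log2(value + 1) scale and 0.319 on the log2 scale of edgeR. On the log2(value + 1) scale 0 Zfp windows gained and 0 lost (limma, unadjusted p under 0.05 in 272 and 68), and under quantile normalization also 0 and 0 (341 and 94), where edgeR called 63 and 2. With an intensity trend 95 gained and 22 lost. Leaving out 1 library gave 0 to 74 gains and 0 to 25 losses, the highest counts without cKO replicate 1. At the highest windows of the genes, log2(value + 1) gave 0 gains and 0 losses (unadjusted p under 0.05 in 20 and 19), quantile normalization 0 and 0 (34 and 33), edgeR 1 and 0 (7 and 5), and leaving out 1 library 0 to 9 gains and 0 to 13 losses. The mean difference of Zfp windows on chromosome 4 was 0.544 with the input filter, against 0.408. Counting the TSS of every transcript gave 9 gained TSS windows in place of 5.

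Of the 44 called windows, 44 were called with either filter and without cKO replicate 1, 38 with an intensity trend, 13 with edgeR, 13 without cKO replicate 3, and 0 on the log2 scale, under quantile normalization and without cKO replicate 4 or any 1 WT library. Among clusters and chromosomes whose genotypes overlapped, the mean difference changed sign 14 times, in 9 of them and under 5 settings (quantile normalization and leaving out cKO replicate 1, 3 or 4 or WT replicate 2). Clusters numbered 14 with gaps of at most 200 kb and 16 with 1000 kb.

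The genotypes share 2 replicate numbers, and the deviations of same-numbered libraries correlated at 0.319 for replicate 1 and 0.0190 for replicate 4. Pairs of unlike number ran from -0.227 to 0.133, so that the replicate 1 libraries were the most alike of all pairs. The main fit nevertheless took same-numbered libraries to share only a number, and a common batch was not tested. With the replicate block 121 Zfp windows gained and 42 lost, 24 highest windows gained and 18 lost, and 1 TRIM28 corepressor gene gained.

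Depth limits single windows, whose median Zfp count was 12 to 56 reads, and 55 Zfp windows had a low input signal, where 0 were called by limma (unadjusted p under 0.05 in 0 for gain and 1 for loss) and 0 by edgeR.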
